A study of Mus musculus with 10 samples.

Results

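The matrix metalloproteases (MMPs), the membrane proteases of the ADAM family, the secreted ADAMTS proteases, the ADAMTS-like proteins and the tissue inhibitors of metalloproteases (TIMPs) were described in reactive cholangiocytes, the bile duct cells that multiply in an injured liver. Members were taken by gene symbol alone, as the genes named *Mmp*, *Timp*, *Adam*, *Adamts* or *Adamtsl* with a number, which gave 84 of the 49568 genes listed. RNA was sequenced from 5 control mice (*Ctl*) and 5 mice with liver deletion of *Smad4* (*Smad4del*), 1 library per mouse, after 2 weeks on a diet with 0.1% DDC, a compound that injures bile ducts and that every mouse received. The cells were sorted from digested liver as EPCAM+/CD45-/TER119-. The labels give the *Ctl* mice as Smad4wt/wt and the *Smad4del* mice as Smad4fl/fl, whereas the methods describe the *Smad4del* mice as *Alb-Cre*; Smad4fl/fl and the *Ctl* mice as lacking *Alb-Cre*, so that effects of Cre and of the loss of *Smad4* cannot be told apart. *Alb-Cre* is active in liver epithelium, in hepatocytes as well as cholangiocytes, and not in the other cells of the organ. The mice were of mixed genetic background, and neither their sex nor their age is given in the labels.

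Metalloproteases cut proteins with the help of a zinc ion. MMPs break down collagens, basement membrane and other matrix proteins, ADAMs mainly release the outer parts of membrane proteins such as growth factors, Notch receptors and cadherins, and ADAMTS enzymes process procollagens and cleave the large proteoglycans. TIMPs bind and block these enzymes. In the injured liver, MMPs and TIMPs are made by stellate cells, macrophages and duct cells, and their balance is known to set how scar matrix is laid down and removed. SMAD4 is the partner that the receptor-activated SMADs of the TGFβ and BMP pathways share, and TGFβ is a known regulator of several matrix proteases and of *Timp1*.

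Of the 84 members, 50 reached a mean of 10 normalized counts across all 10 mice and were tested. A further 18 had reads in at least 1 mouse, with means of 0.111 to 8.55. The remaining 16 were listed at 0 in every mouse: *Mmp1a*, *Mmp1b*, *Mmp10* and 13 ADAM genes known mainly from testis (*Adam2*, *Adam3*, *Adam6a*, *Adam6b*, *Adam18*, *Adam20*, *Adam24*, *Adam25*, *Adam26a*, *Adam26b*, *Adam29*, *Adam34* and *Adam39*). The *Ctl* libraries held 16249719 to 21277339 reads assigned to genes and the *Smad4del* libraries 16734672 to 19710560, at which a count of 0 allows up to 3 reads in a mouse, a limit that covers counting error only.

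*Smad4*, the deleted gene, was measured first as a check of the labels. Its normalized counts were 3058, 3714, 3584, 2969 and 3619 in the *Ctl* mice A5215, A5219, A5221, A5626 and A5628, and 812, 1031, 687, 1011 and 846 in the *Smad4del* mice A5216, A5217, A5218, A5447 and A5624. This order of mice holds for all values by mouse that follow. The groups did not overlap, and *Smad4* was 3.89-fold lower in *Smad4del* cells (log2 fold change -1.96 ± 0.12 SE, limma, adjusted p = 1.09e-05).

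8 members were called lower in *Smad4del* cells and 0 higher by limma on log2(normalized count + 1), with Benjamini-Hochberg adjustment over the 14870 genes tested at a threshold of 0.05. Over all genes tested, 4.69% were called lower and 2.43% higher. The called members were 3 ADAMTS proteases (*Adamts1*, *Adamts2* and *Adamts4*), 3 ADAMs (*Adam10*, *Adam15* and *Adam19*) and 2 inhibitors (*Timp1* and *Timp3*), and none of the 17 MMPs tested was among them (5 lower and 3 higher at an unadjusted p under 0.05). DESeq2 called *Mmp2*, *Mmp14* and *Mmp19* lower and *Mmp15* and *Mmp20* higher, and edgeR called none of the MMPs. Over all members, 23 were lower and 5 higher at an unadjusted p under 0.05. Of the 14870 genes tested, 2244 were lower and 1832 higher at that level. The log2 fold change was below 0 in 40 of the 50 members (80.0%, beside 50.6% of all genes tested), with a median of -0.73 beside -0.00497 over all genes tested. For 8 members every *Smad4del* mouse lay below every *Ctl* mouse, and for 1 member above, where 4.59% and 3.5% of all genes tested did so. The plot of fold changes by role shows the members in order.

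**Figure D1:**
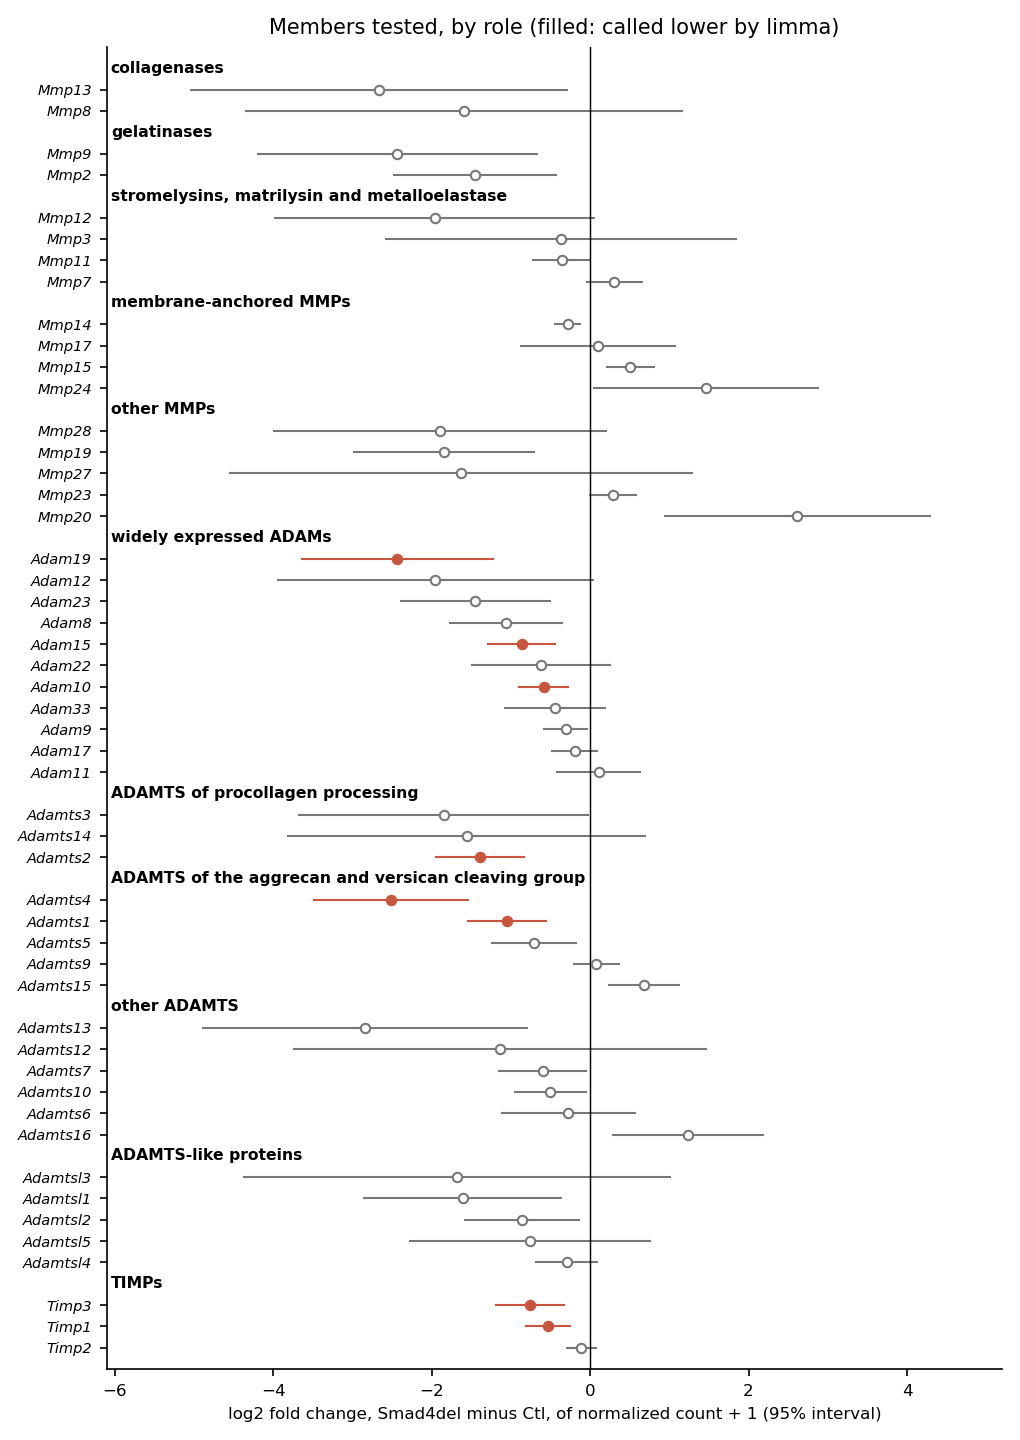
Log2 fold change of the normalized count + 1, *Smad4del* minus *Ctl*, with its 95% interval from limma for the 50 members tested, grouped by role (5 mice per cohort); filled points are the 8 members called lower. The intervals of the called members lie left of 0, and *Mmp20*, at 2.62, is the point farthest to the right.

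The calls rest on few mice, and other cell types differed between the cohorts. A5215, a *Ctl* mouse, had the highest value of all 10 mice in 22 of the 50 members (44.0%) against 21.7% of all genes tested. Without it 3 members were called lower (*Adamts1*, *Adamts2* and *Adamts4*; 3.10% of all genes tested), while 39 of 50 members still had a log2 fold change below 0 and the median was -0.58. The counts of members called lower were also 4 without A5221, 4 without A5626, 3 without A5217 and 2 without A5218, where 2.60%, 3.14%, 2.18% and 2.39% of all genes were called lower, and 10 without A5219 or A5216 (5.76% and 5.11%). Count tests on recovered reads called 16 members lower and 4 higher with DESeq2 (8.72% and 6.03% of all genes) and 6 lower and 0 higher with edgeR (4.02% and 2.1%). Of the members called lower by limma, edgeR over all 10 mice did not call *Adam19* and *Timp3*. Without A5217, DESeq2 called 12 lower and 2 higher (6.47% and 3.06% of all genes) and edgeR 2 lower and 0 higher (1.78% and 0.599%).

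The sorted cells carried their own markers, with 3 of 14 cholangiocyte markers called higher and 0 lower in *Smad4del* cells (mean log2 level 13.2 to 13.7 in *Ctl* and 13.6 to 13.9 in *Smad4del* mice, exact permutation p = 0.0238). Of 15 endothelial markers, 14 were called lower in *Smad4del* cells and all 15 had a log2 fold change below 0. Their summed normalized counts ranged from 27093 to 77578 in *Ctl* and from 9651 to 20025 in *Smad4del* mice. The exact permutation p of the mean log2 level was 0.00794, the smallest that 5 mice against 5 can give. Of the stellate and fibroblast markers, 2 of 14 tested were called lower and 13 had a log2 fold change below 0, with summed counts of 31314 to 60295 and 21261 to 30936 (exact permutation p = 0.0159). None of 16 macrophage markers was called, but all 16 had a log2 fold change below 0, with summed counts of 40803 to 353851 in *Ctl* and 29110 to 121996 in *Smad4del* mice (exact permutation p = 0.0794). No marker of hepatocytes, neutrophils, lymphocytes or erythroid cells was called (exact permutation p = 0.468, 0.0714, 0.333 and 0.802), and *Ly6g*, which defines neutrophils, was at 0 in all mice. A5215 had the highest level of 5 of these lists (endothelial, macrophage, neutrophil, lymphocyte, stellate and fibroblast). In such sorted bulk samples fewer cells of a type and less RNA per cell cannot be told apart. With the level of the stellate and fibroblast markers as a covariate 0 members were called, and over all genes the calls dropped to 31 lower and 6 higher (0.208% and 0.0403%). The log2 fold changes of the 8 members stayed below 0 in that fit, between -1.78 for *Adam19* and -0.40 for *Adam10*. With the level of the macrophage markers 5 members were called lower (*Adam19*, *Adamts2*, *Adamts4*, *Mmp14* and *Timp3*), beside 2.89% of all genes. The level of the endothelial markers was not fitted as a covariate. The part of these other cells in the members' falls was not tested further.

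3 promoters of called members are shown because the deleted gene encodes a DNA-binding factor and these differ in what they hold: the 250 bases before the start of *Adam15* with the SMAD box, of *Adamts2* with the GC-rich SMAD site and of *Adamts1* with neither. They are RefSeq sequences on GRCm38.p6, 5′ to 3′ on the strand of the gene, ending just before the start. Capitals mark matches, on either strand, to TGANTCA (AP-1), CAGAC (the SMAD box), GTCTAGAC (the SMAD palindrome), GGCGCC (the GC-rich SMAD site) and TATAAA (the TATA box).
Adam15, chr3:89350029-89350278, minus strand: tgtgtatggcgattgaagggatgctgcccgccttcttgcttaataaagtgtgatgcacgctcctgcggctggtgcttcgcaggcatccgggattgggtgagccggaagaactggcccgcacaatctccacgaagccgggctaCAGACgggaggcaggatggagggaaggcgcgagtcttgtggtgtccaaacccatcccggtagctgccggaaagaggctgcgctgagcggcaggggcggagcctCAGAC
Adamts2, chr11:50601835-50602084, plus strand: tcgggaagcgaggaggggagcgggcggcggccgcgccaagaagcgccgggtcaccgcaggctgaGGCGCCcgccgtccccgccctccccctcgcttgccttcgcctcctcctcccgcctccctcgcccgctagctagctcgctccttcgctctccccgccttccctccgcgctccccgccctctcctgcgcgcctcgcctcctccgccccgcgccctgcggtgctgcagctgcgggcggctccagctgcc
Adamts1, chr16:85803114-85803363, minus strand: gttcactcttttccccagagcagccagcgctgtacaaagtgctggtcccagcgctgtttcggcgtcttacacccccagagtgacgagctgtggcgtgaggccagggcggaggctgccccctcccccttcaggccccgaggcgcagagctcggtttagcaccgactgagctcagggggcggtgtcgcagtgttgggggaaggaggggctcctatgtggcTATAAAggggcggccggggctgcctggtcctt

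*Adam15* held the SMAD box at 108 and at 5 bases before its start, *Adamts2* the GC-rich site at 186 bases and *Adamts1* a TATA box at 32 bases. The SMAD box was in 42.2% of 32851 promoters of this length and in 11 of the 30 tested members that have exactly 1 start, the GC-rich site in 9.59% and in 6 members, AP-1 in 6.75% and in 3 members (*Mmp3*, *Mmp13* and *Mmp20*), the TATA box in 12.4% and in 5 members, and the palindrome in 0.167% and in 0 members. Among the 6 called members with 1 start (*Adam10*, *Adam15*, *Adamts1*, *Adamts2*, *Timp1* and *Timp3*), the SMAD box, the GC-rich site and the TATA box were each in 1 and AP-1 in 0. A match gives letters in a window and is not a measured binding site. In all, 53 of the 84 members had a promoter in the table.

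Among the ADAMTS proteases of the aggrecan and versican cleaving group, 2 of 5 tested members fell. *Adamts4*, an aggrecanase on chromosome 1 (171250421 to 171260637), had normalized counts of 4063, 1437, 2718, 1453 and 1369 in *Ctl* mice and 567, 302, 112, 538 and 507 in *Smad4del* mice. Every *Smad4del* mouse was below the lowest *Ctl* mouse. The mean was 2208 ± 1180 in *Ctl* and 405 ± 194 in *Smad4del* (SD, n = 5 each), and the log2 fold change was -2.51 ± 0.45 SE (5.69-fold lower, limma, adjusted p = 0.00858). The call stayed without each single mouse (adjusted p 0.0106 to 0.0290).

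*Adamts1*, a versican-cleaving protease on chromosome 16 (85793827 to 85803113), had 14276, 6083, 8196, 5961 and 7009 normalized counts in *Ctl* mice and 3369, 3248, 3134, 5425 and 4248 in *Smad4del* mice. A5215 stood highest, and the groups did not overlap. The log2 fold change was -1.05 ± 0.23 SE (2.07-fold lower, adjusted p = 0.0228), and without A5217, A5218 or A5221 the adjusted p was 0.0538 to 0.0654.

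The other members of this group did not pass the test. *Adamts5*, the second main aggrecanase, was 212 ± 31.9 in *Ctl* and 134 ± 45.2 in *Smad4del* (log2 fold change -0.71, adjusted p = 0.0974). *Adamts15* ran the other way, with 283, 293, 308, 363 and 461 in *Ctl* and 483, 538, 356, 704 and 697 in *Smad4del* mice (log2 fold change 0.68, adjusted p = 0.0657), and the groups overlapped through A5218. *Adamts9* was 1302 ± 265 and 1363 ± 159 (log2 fold change 0.08, 95% interval -0.21 to 0.37).

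*Adamts2*, on chromosome 11 (50602084 to 50807573), removes the amino-terminal propeptide of fibrillar procollagens and fell by 1.39 ± 0.26 SE on the log2 scale (2.63-fold lower, adjusted p = 0.0104). Its normalized counts were 968, 1003, 1038, 531 and 545 in *Ctl* mice and 299, 178, 403, 342 and 315 in *Smad4del* mice. The groups did not overlap, and the *Ctl* mice with numbers beginning A52 were well above the other 2. The call stayed without each single mouse (adjusted p 0.0128 to 0.0325). *Adamts3*, a related enzyme known for procollagen and VEGF-C processing, was lower at an unadjusted p under 0.05 (34.5 ± 18.3 and 11.9 ± 9.15, adjusted p = 0.180), as a gene of low counts.

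None of the other 6 ADAMTS genes tested was called by limma or edgeR, with 3 lower and 1 higher at an unadjusted p under 0.05, and DESeq2 called *Adamts13* lower and *Adamts16* higher. *Adamts7*, which cleaves cartilage oligomeric matrix protein, had the highest mean of them, with 584 ± 163 in *Ctl* and 388 ± 107 in *Smad4del* (log2 fold change -0.60, adjusted p = 0.157), and it shares 1.94% of its exon bases with *Tbc1d2b* on the opposite strand. *Adamts13*, the enzyme that cuts von Willebrand factor and is made in liver mainly by stellate cells, was 129, 22.1, 7.40, 45.1 and 16.7 in *Ctl* and 1.04, 22.0, 0, 2.76 and 5.22 in *Smad4del* mice (adjusted p = 0.0831), overlapping through A5217. *Adamts10*, known for its link to fibrillin, was 222 ± 43.4 and 158 ± 36.7 (adjusted p = 0.153). *Adamts16* was the gene of this set with a higher mean in *Smad4del* cells, 202 ± 104 against 86.9 ± 45.1 (adjusted p = 0.102).

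The ADAMTS-like proteins lack protease activity and bind matrix. All 5 had a log2 fold change below 0, and 0 were called by limma or edgeR, with 2 lower at an unadjusted p under 0.05 (*Adamtsl1* and *Adamtsl2*, both called by DESeq2 over 10 mice). *Adamtsl4* had the highest mean (550 ± 72.6 in *Ctl* and 457 ± 123 in *Smad4del*, adjusted p = 0.312). *Adamtsl2*, which binds fibrillin and a latent TGFβ binding protein, was 631 in A5215, 167 to 262 in the other *Ctl* mice and 93.8 to 181 in *Smad4del* mice (log2 fold change -0.86, adjusted p = 0.125). With the stellate and fibroblast covariate its fold change turned to 0.0464 (adjusted p = 0.978). *Adamtsl1* was 90.2 ± 46.5 and 30.4 ± 20.8 (adjusted p = 0.103).

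**Figure D2:**
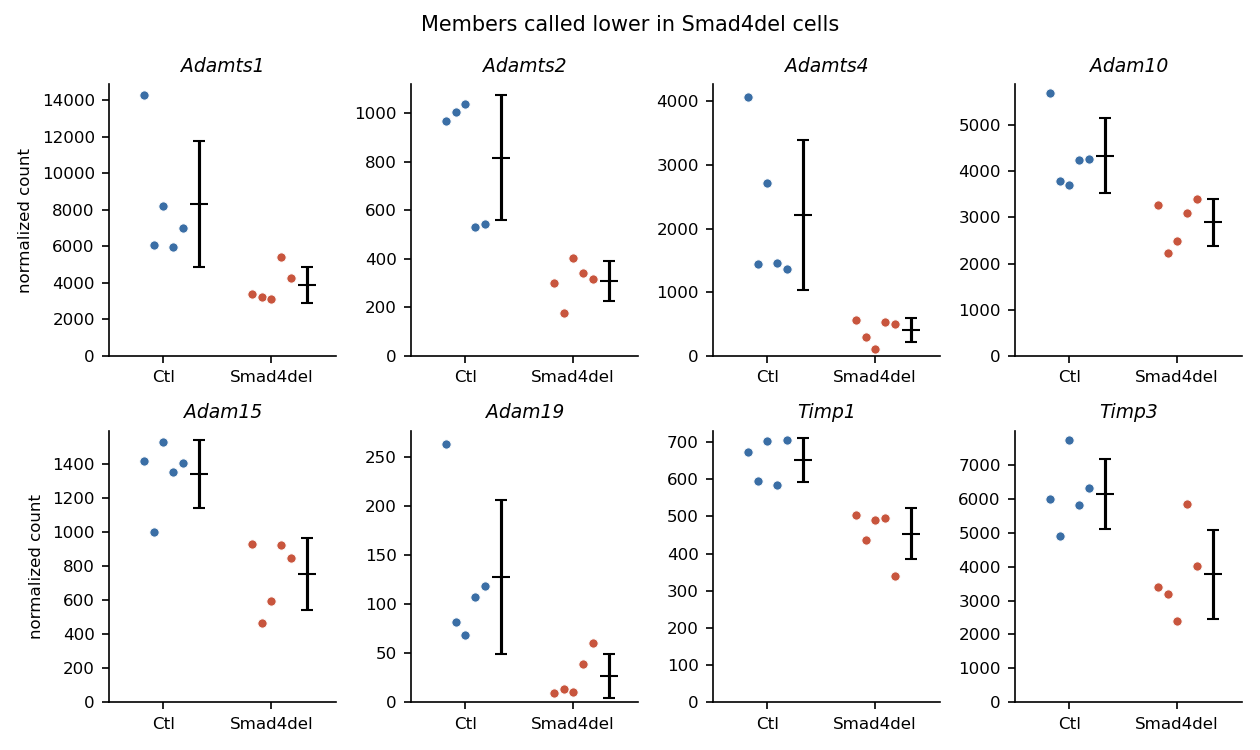
Normalized counts of the 8 members called lower in *Smad4del* cells, 1 point per mouse, with the mean and SD of 5 mice beside each group on linear axes from 0. The groups overlap only for *Timp3*, through A5447, and A5215 is the highest *Ctl* point for *Adamts1*, *Adamts4*, *Adam10* and *Adam19*.

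Among the 11 widely expressed ADAMs tested, 10 had a log2 fold change below 0 and 3 fell. *Adam10*, the main sheddase of Notch receptors and E-cadherin, on chromosome 9 (70678997 to 70780229), had 5703, 3793, 3695, 4236 and 4264 normalized counts in *Ctl* mice and 3268, 2227, 2478, 3090 and 3399 in *Smad4del* mice. The groups did not overlap, with A5624 and A5221 nearest to each other. The fold change was small (log2 -0.59 ± 0.15 SE, 1.5-fold lower, adjusted p = 0.0345), and leaving out any of A5215, A5217, A5218, A5626 and A5628 gave an adjusted p of 0.0591 to 0.0852.

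*Adam15*, an ADAM known for binding integrins, on chromosome 3 (89338542 to 89349996), had 1416, 1001, 1527, 1348 and 1401 in *Ctl* and 930, 468, 596, 923 and 848 in *Smad4del* mice. The groups did not overlap (log2 fold change -0.87 ± 0.20 SE, 1.82-fold lower, adjusted p = 0.0248), and without A5215, A5218, A5221 or A5626 the adjusted p was 0.0503 to 0.0639. It shares 20.6% of its exon bases with *4731419I09Rik* on the opposite strand, which had a mean of 0.0925 normalized counts, and the kit does not mark strand. *Adam19*, a sheddase of neuregulins on chromosome 11 (46055992 to 46147343), was measured at lower counts, 263, 81.5, 68.5, 107 and 119 in *Ctl* and 9.33, 14.0, 10.1, 39.6 and 60.5 in *Smad4del* mice. It fell by 2.43 ± 0.56 SE on the log2 scale (adjusted p = 0.0259), and 5 single mice (A5215, A5217, A5218, A5626 and A5628) each ended the call when left out (adjusted p 0.0502 to 0.0690).

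*Adam17*, the sheddase of TNF and of several EGF receptor ligands, is named after its values were seen. It was 2764, 1897, 2188, 2415 and 1736 in *Ctl* and 2341, 1618, 1943, 1775 and 1876 in *Smad4del* mice, overlapping throughout (log2 fold change -0.19, 95% interval -0.49 to 0.10, adjusted p = 0.377). *Adam8*, known from leukocytes, was 2107 ± 1028 and 989 ± 408 (adjusted p = 0.0701), and it was called lower by DESeq2 (0.00789) and without A5216 (0.0397). *Adam9* was 2726 ± 530 and 2183 ± 259 (log2 fold change -0.31, adjusted p = 0.148). *Adam23*, which has no protease activity, was 3436 in A5215, 486 to 1076 in the other *Ctl* mice and 223 to 611 in *Smad4del* mice (adjusted p = 0.0640), and it was called lower by DESeq2 (0.0149) and without A5219 (0.0247).

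Of the 4 TIMPs, *Timp1* and *Timp3* fell, *Timp2* was not called and *Timp4* was barely detected. *Timp1*, a soluble inhibitor on chromosome X (20870166 to 20874735), had 674, 596, 703, 583 and 705 normalized counts in *Ctl* mice and 505, 437, 491, 496 and 339 in *Smad4del* mice. The groups did not overlap (652 ± 58.7 and 454 ± 69.1, log2 fold change -0.53 ± 0.13 SE, 1.45-fold lower, adjusted p = 0.0349). Leaving out any of 6 mice (A5215, A5217, A5218, A5221, A5624 and A5628) gave an adjusted p of 0.0571 to 0.0839.

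*Timp3*, the inhibitor that is held in the matrix and also blocks ADAM17 and the aggrecanases, on chromosome 10 (86300372 to 86349506), had 5988, 4889, 7723, 5813 and 6322 in *Ctl* and 3397, 3205, 2384, 5850 and 4015 in *Smad4del* mice. A5447 reached into the *Ctl* range. The log2 fold change was -0.75 ± 0.20 SE (1.69-fold lower, adjusted p = 0.0462), and the call was lost without any of 8 single mice, all but A5219 and A5447 (adjusted p 0.0686 to 0.110). *Timp3* was also not called by edgeR or under median scaling. It shares 21.3% of its exon bases with *Syn3* on the opposite strand, which had a mean of 35.3 normalized counts.

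*Timp2*, which blocks MMPs and also takes part in the activation of MMP2 at the cell surface, had 14991, 11710, 14650, 13150 and 13296 in *Ctl* and 11413, 12179, 11811, 14234 and 13154 in *Smad4del* mice. The groups overlapped, and the 95% interval of the log2 fold change was -0.31 to 0.09 (adjusted p = 0.458). *Timp4*, which shares 1.53% of its exon bases with *Syn2* on the opposite strand, was 0, 0.849, 20.4, 0 and 1.11 in *Ctl* and 8.29, 0, 0, 0 and 3.13 in *Smad4del* mice and was not tested.

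The membrane-anchored MMPs were split in direction, and 0 of 4 tested were called. *Mmp14*, which activates MMP2 and cleaves collagen at the cell surface, on chromosome 14 (54431612 to 54445364), had 6950, 7315, 7034, 6820 and 8029 normalized counts in *Ctl* and 5430, 5538, 5963, 6593 and 6216 in *Smad4del* mice. Every *Smad4del* mouse was below every *Ctl* mouse, and the difference was small (log2 fold change -0.28 ± 0.08 SE, adjusted p = 0.0511). *Mmp14* was called lower under 8 of 28 alternatives, among them DESeq2 (adjusted p = 0.00946), a fit with a block for the mouse numbers beginning A52 (the mouse number block, 0.0380) and the macrophage covariate (0.0180), and not by edgeR (0.0701). *Mmp15*, a related membrane protease on chromosome 8 (95352268 to 95375080), was 1225, 1897, 1432, 1400 and 1415 in *Ctl* and 1742, 1794, 1963, 2372 and 2618 in *Smad4del* mice. Only A5219 of the *Ctl* mice reached the *Smad4del* range (log2 fold change 0.51 ± 0.14 SE, adjusted p = 0.0522), and without A5219 or A5216 the gene was called higher (lowest adjusted p 0.0218). *Mmp24* was 33.4 ± 27.6 and 71.2 ± 31.0 (adjusted p = 0.171), and it shares 13.6% of its exon bases with *BC029722* on the opposite strand, which had a mean of 218.

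*Mmp7*, or matrilysin, the MMP that epithelial duct cells are known to make, on chromosome 9 (7692090 to 7699585), had 10294, 9852, 12677, 8616 and 12451 normalized counts in *Ctl* and 13755, 11232, 13105, 19441 and 10179 in *Smad4del* mice. A5447 was highest and the groups overlapped (log2 fold change 0.31, 95% interval -0.06 to 0.67, adjusted p = 0.255). Per kb of exon, *Mmp7* was the highest member, with 11386 normalized counts per kb over the 10 mice, 49.9% of the sum of the per-kb means over the members. Its lowest mouse (8067 per kb) was above the highest mouse of *Timp2*, next in order with a mean of 3352 per kb. *Adamts1* followed with 1150, *Mmp14* with 1106 and *Adam10* with 736 per kb, and the neighbours *Adamts1* and *Mmp14* overlapped across mice (591 to 2693 and 911 to 1347 per kb). Further down, *Timp1*, *Timp3* and *Adam9* had means of 623, 609 and 596 per kb with overlapping ranges.

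**Figure D3:**
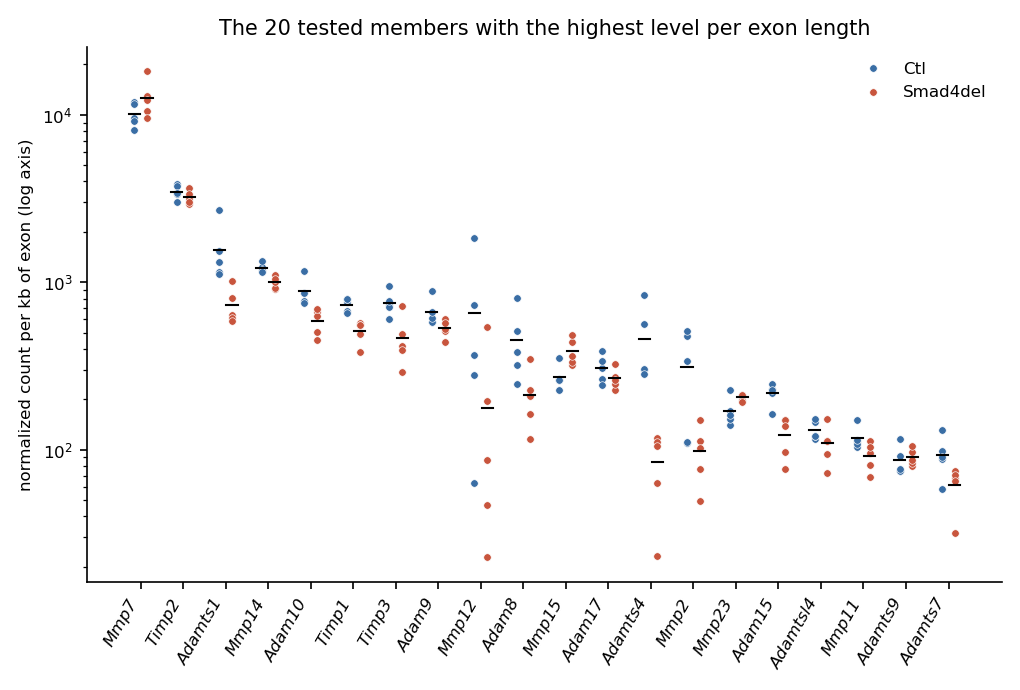
Normalized count per kb of exon, on a log axis, for the 20 tested members with the highest means, 1 point per mouse (5 *Ctl* and 5 *Smad4del*) with a bar at the mean of each group. *Mmp7* lies above all other members in every mouse, and *Mmp12* spans 22.8 to 1836 per kb.

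*Mmp20*, known as the enamel protease, was near the limit of detection in *Ctl* mice, with 8.71, 0, 0.925, 2.88 and 7.77 normalized counts, and had 52.9, 19.0, 29.4, 13.8 and 10.4 in *Smad4del* mice. It was the member whose *Smad4del* mice all lay above the *Ctl* mice (log2 fold change of normalized count + 1 of 2.62 ± 0.77 SE, limma, adjusted p = 0.0598). The exact permutation p, not adjusted, was 0.00794, the value that any gene without overlap takes with 5 mice against 5. Among the 5 tested MMPs outside the collagenases, gelatinases, membrane-anchored MMPs and the stromelysin, matrilysin and metalloelastase group, *Mmp23* had the highest mean. It was 399 ± 78.8 in *Ctl* and 481 ± 22.2 in *Smad4del* (adjusted p = 0.201). By DESeq2 *Mmp15*, *Mmp20*, *Adamts15* and *Adamts16* were called higher (adjusted p = 0.0122, 0.0301, 0.0173 and 0.0427), and without A5217 *Mmp15* and *Adamts15* were.

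**Figure D4:**
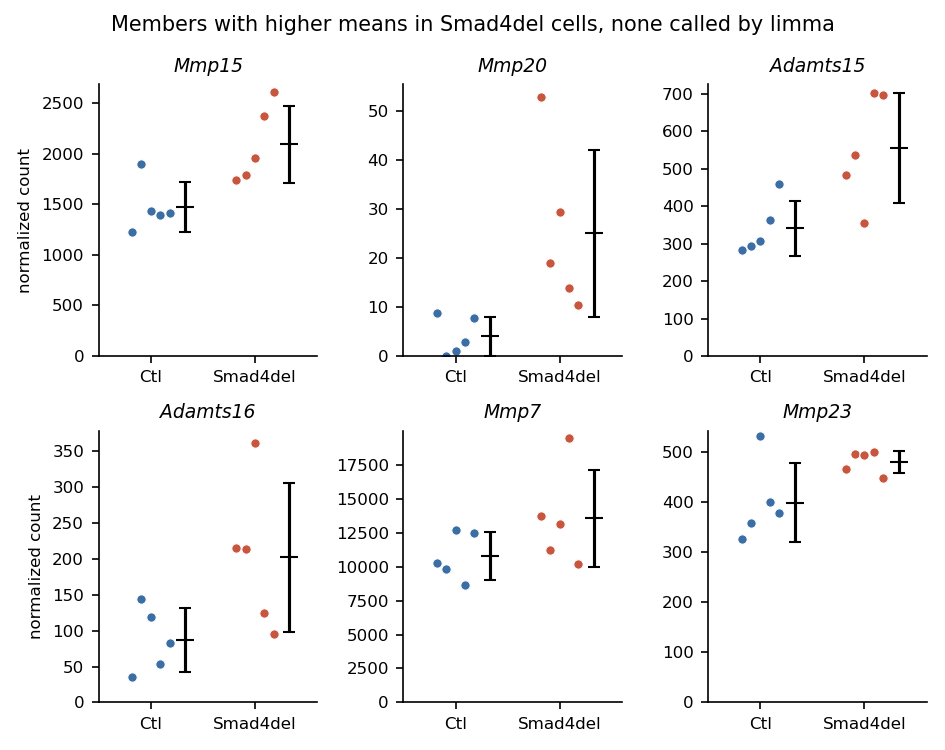
Normalized counts of 6 members with higher means in *Smad4del* cells, none of them called by limma, 1 point per mouse with the mean and SD of 5 mice beside each group on linear axes from 0. Only *Mmp20* shows groups without overlap, at counts of 52.9 and below.

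MMPs known from stromal and myeloid cells were measured in the sorted cells with a wide spread between mice. *Mmp2*, gelatinase A, a product of stellate cells and fibroblasts, was 1604, 1141, 1734, 369 and 373 in *Ctl* and 167, 504, 381, 257 and 343 in *Smad4del* mice. The *Ctl* mice numbered A52 were high and the other 2 lay within the *Smad4del* range (log2 fold change -1.45, adjusted p = 0.0790). With the mouse number block *Mmp2* was called lower (adjusted p = 0.0452), as it was by DESeq2 (0.0155) and without A5628 (0.0490). *Mmp9*, gelatinase B, was 688, 153, 170, 381 and 135 in *Ctl* and 377, 35.9, 9.13, 52.5 and 26.1 in *Smad4del* mice (log2 fold change -2.43, adjusted p = 0.0856), overlapping through A5216, without which it was called lower (-3.19, adjusted p = 0.0125). *Mmp13*, the main interstitial collagenase of rodents, was 35.5 to 524 in *Ctl* and 3.04 to 137 in *Smad4del* mice (adjusted p = 0.142). *Mmp19* was 121 to 696 and 40.7 to 207 (adjusted p = 0.0544, and 0.0288 with the mouse number block), and it shares 22.3% of its exon bases with *Tmem198b* on the opposite strand, which had a mean of 229.

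*Mmp12*, the macrophage elastase, and *Mmp8*, the neutrophil collagenase, are named after their values were seen. *Mmp12* was 13285, 2677, 2011, 5262 and 460 in *Ctl* and 3909, 1412, 625, 165 and 336 in *Smad4del* mice, and its order over the 10 mice was that of the macrophage marker level but for A5217 and A5218, which changed places. A5215 was highest and A5447 lowest in both, and A5628, the *Ctl* mouse with the lowest macrophage level, had the lowest *Mmp12* of the *Ctl* mice (log2 fold change -1.96, adjusted p = 0.195). *Mmp8* was 1.11 to 363 in *Ctl* and 3.68 to 109 in *Smad4del* mice, with A5628 the lowest of all (adjusted p = 0.436). The part of macrophages in these values was not tested.

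**Figure D5:**
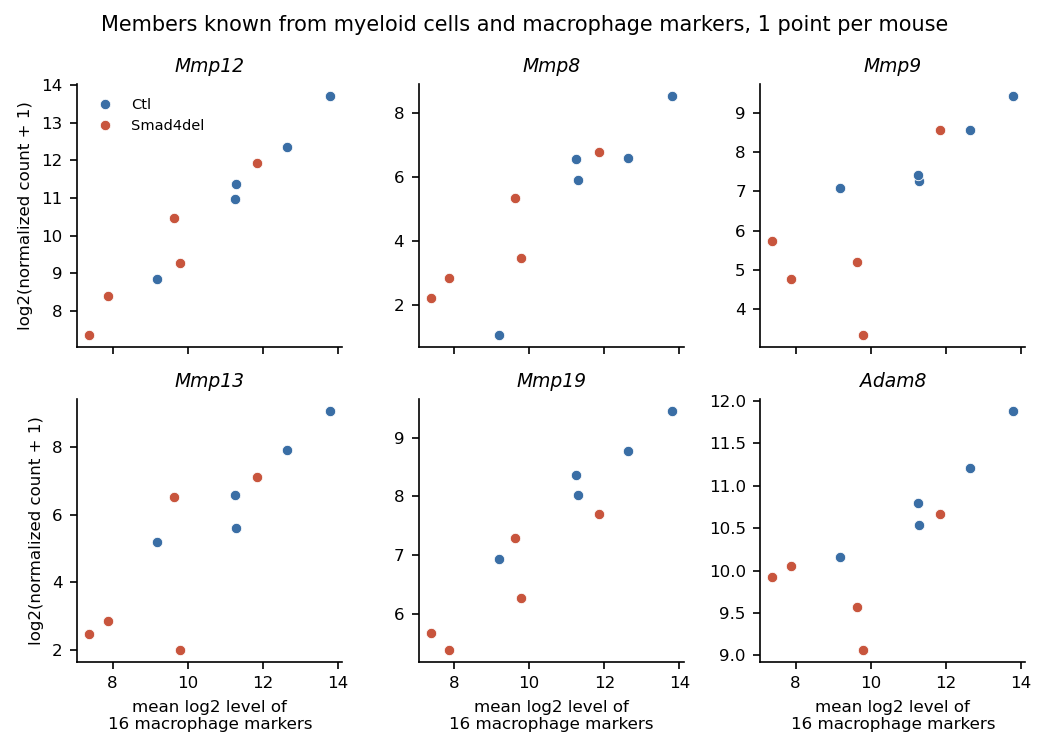
Log2(normalized count + 1) of 6 members against the mean log2 level of 16 macrophage markers, 1 point per mouse (blue *Ctl*, red *Smad4del*). A5215, with the highest marker level (13.8), is the highest point in each panel, and A5447, with the lowest marker level (7.38), is the lowest for *Mmp12*.

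10 of the MMP genes lie in 1 cluster on chromosome 9 (chr9:7272514-7699585, GRCm38), of which 7 were tested. In genome order, *Mmp13*, *Mmp12*, *Mmp3*, *Mmp8* and *Mmp27* had log2 fold changes below 0 (-2.66, -1.96, -0.37, -1.59 and -1.63), and *Mmp20* and *Mmp7* at the far end were above 0 (2.62 and 0.31). None of the 7 was called, so the split is a description of these means.

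Mouse numbers form a block beginning A52 with 3 mice per cohort and a later block with 2 per cohort; what the numbers stand for is not given in the labels. All 8 called members were lower in *Smad4del* mice in both blocks, with log2 differences of -3.26 to -0.46 in the A52 block and -1.43 to -0.32 in the later block, and for 7 of the 8 the difference was larger in the A52 block. The exception was *Timp1* (-0.46 and -0.64). Of the 50 members tested, 37 were lower in both blocks and 5 had opposite signs (*Adam11*, *Mmp3*, *Mmp17*, *Mmp27* and *Timp2*). With the block as a term in the fit of all 10 mice, the 8 calls stayed, *Mmp2*, *Mmp14* and *Mmp19* were also called lower and *Mmp15* and *Adamts15* higher (11 lower and 2 higher, beside 4.89% and 2.66% of all genes). Tested within a block, with fewer mice, 0 members were called lower among the A52 mice and 1, *Adamts4*, among the later mice, where 0.417% and 0.236% of all genes were.

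The genes that act with these proteases changed in both directions. Among activators of MMPs and ADAMs, *Prss8*, a membrane serine protease, rose (1219 ± 198 to 1899 ± 217, log2 fold change 0.65, adjusted p = 0.0117) and *Prss22* fell (130 ± 51.2 to 41.7 ± 22.2, -1.66, adjusted p = 0.0197), of 13 tested. Among 11 other inhibitors tested, *Serpine2* and *Serpinb2* rose (log2 fold changes 0.40 and 3.52, adjusted p = 0.0479 and 0.0341). *Serpine2* was 4146 ± 734 in *Ctl* and 5399 ± 221 in *Smad4del*. *Serpinb2* was near the limit of detection in *Ctl* mice, with 0.740 ± 1.66 against 21.0 ± 20.9 in *Smad4del*. The groups overlapped for both genes. The calls of *Serpine2* and *Serpinb2* were lost without any of 9 and of 7 single mice (adjusted p 0.0572 to 0.112 and 0.0535 to 0.0764), and that of *Prss22* without A5217 or A5218 (0.0501 and 0.0523).

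Among 12 tested partners of ADAM10 and ADAM17, the call was for *Tspan5*, a tetraspanin that guides ADAM10 to the cell surface, which fell from 438 ± 87.8 in *Ctl* to 145 ± 15.6 in *Smad4del* (log2 fold change -1.57 ± 0.17 SE, adjusted p = 5.39e-04, groups apart). Of 33 tested substrates that ADAMs shed, 2 fell: *Vcam1*, an adhesion molecule (29924 ± 3182 to 19573 ± 1435, adjusted p = 0.00391), and *Cd44*, the hyaluronan receptor (10068 ± 661 to 7009 ± 1330, adjusted p = 0.0208). The call of *Cd44* was lost without A5217, A5218 or A5221 (0.0519 to 0.0601).

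Of 28 tested matrix substrates, 6 fell and 0 rose, and the median log2 fold change was -0.44. *Ecm1* (-1.58, adjusted p = 0.00663), the basement membrane protein *Nid1* (-0.96, 0.00737), the proteoglycan *Dcn* (-2.08, 0.00831) and the collagen chain *Col5a1* (-1.36, 0.0192) had the smallest p. *Dcn* is also among the stellate and fibroblast markers, as are *Col1a1*, *Col1a2*, *Col3a1* and *Lum*, matrix substrates that were not called. The median of this list therefore shares genes with that marker list. *Col5a1* lost its call without A5217 or A5221 (0.0536 and 0.0513). Of 15 tested genes in a list of other matrix-degrading or matrix-processing genes, 8 fell and 0 rose (median -0.98). The smallest p were those of *Hpse*, the heparanase (-1.51, adjusted p = 0.00791), the serine protease *Htra1* (-1.40, 0.0119), the lysosomal collagenase *Ctsk* (-2.01, 0.0165) and *Bmp1*, the procollagen C-proteinase (-0.59, 0.0168, and 0.0502 without A5217). The 8 also hold *Pcolce* and *Pcolce2* (-0.56 and -3.57, adjusted p = 0.0479 and 0.0394), helpers of procollagen processing that are not proteases. Their calls were lost without any of 8 and of 6 single mice. *Ctss*, in this list and not called, is also among the macrophage markers. These lists stand beside 4.69% of all genes called lower and 2.43% higher.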

How the data were processed

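Reactive cholangiocytes of 5 *Ctl* and 5 *Smad4del* mice were analysed as 1 sample per mouse. The labels carry the tag cell line and a culture protocol, whereas the methods describe cells sorted from livers, as taken here. Libraries were made with the SMART-Seq v4 kit, which amplifies RNA of few cells and does not mark strand. The deposited signal values are read counts per gene that the authors normalized with DESeq2 1.14.1 in R 3.3.2, after trimming with Trimmomatic 0.36, alignment with STAR to GRCm38.p5 with GENCODE M12 and counting with featureCounts; the submitters' processing notes also name mm9. The sources used here do not say whether multi-mapping reads were counted in the deposited values, which touches genes with close copies such as *Adam26a* and *Adam26b*. Each value is a count divided by 1 size factor per mouse, not corrected for gene length.

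Values were whole multiples of a step per mouse (relative tolerance 1e-06), which gave the reads on genes. The step of A5217 is within 0.5% of 1, so its reads are less certain; its values are not rounded, and count tests (edgeR 4.0.16, DESeq2 1.42.0) were run with and without it as alternatives. The lowest chi-square per degree of freedom between any 2 mice was 25.4, so that no library repeats another.

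The main test was limma 3.58.1 (R 4.3.3) with a trended prior on log2(normalized count + 1), with cohort as the only term, over the 14870 genes with a mean of 10 or more, and with Benjamini-Hochberg adjustment at 0.05. For low genes, fold changes on this scale can lie above or below the ratio of the mean counts. *Adam12*, with means of 58.0 in *Ctl* and 26.5 in *Smad4del*, was fitted as 3.88-fold lower. *Mmp3*, with means of 57.7 and 24.7, was fitted as 1.29-fold lower. Single levels were compared with exact two-sided permutation tests. No litter, sex or batch is given, so p-values measure the spread between these mice. All 84 members matched 1 entry of GENCODE M21 (GRCm38), from which positions and exon lengths came; promoters came from RefSeq. The script was tested on simulated data.

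Named genes were *Smad4*, called members, the TIMPs, members with an unadjusted p under 0.05, the tested member of highest mean in each role, the 5 highest per kb, members with no overlap between cohorts, those at 0 in all mice, and up to 4 called genes per related list; 3 genes outside the family are not reported here. Members and lists were chosen with earlier results of these data known. The alternatives used pseudocounts of 0.5 and 10, a minimum mean of 50 or none, TMM, median and quantile scaling, sample weights, a robust prior, a mouse number block, marker covariates, the A52 mice alone and leaving out each mouse; the later mice alone were added after seeing the data.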

Additional observations from a re-analysis of the deposited data

Results flagged for a closer look

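In 68 groups of 5 mice, 3 held a mouse far from the other 4 of its cohort by Dixon's criterion, where chance gives about 1 in 20 groups. *Adamts5*, an aggrecanase, was 158 in the *Ctl* mouse A5626, below the 214 to 237 of the other *Ctl* mice and within the *Smad4del* range. *Adamts7* was 201 in the *Smad4del* mouse A5218 against 407 to 470 in the others of its cohort. *Timp4* was 20.4 in the *Ctl* mouse A5221 and 0 to 1.11 in the other *Ctl* mice.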

How the results depend on the processing

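*Smad4* was called lower under all 28 alternatives. Of the named members, 769 values kept direction and side of the threshold, 50 passed it in addition, 72 lost it and 2 turned in sign: *Adamtsl2* to 0.0464 with the stellate and fibroblast covariate and *Timp2* to 0.0494 in the later mice. Against 0 members called higher, DESeq2 called 4 (2 without A5217), quantile scaling 3, median scaling 2, sample weights 2, the mouse number block 2, and the minimum of 50, the pseudocount of 10 and the robust prior 1 each; leaving out a mouse gave 0 to 1. Against 8 called lower, DESeq2 called 16 (12 without A5217), the mouse number block 11, 10 each with sample weights and with the minimum of 50, the pseudocount of 10 9, edgeR 6, the macrophage covariate 5, no filter 5, edgeR without A5217 2, the later mice 1, and the A52 mice and the stellate and fibroblast covariate 0; leaving out a mouse gave 2 to 10. The causes were not tested, except that the A52 and later mice are fewer samples and no filter tests more genes (27011). The share of all genes called lower was 4.69% in the main fit, 5.68% with sample weights and 5.62% with the minimum of 50. With the pseudocount of 10 it was 4.99%, and with no filter 1.90%. The share called higher was 2.43% in the main fit, 3.39% with sample weights and 3.34% with the minimum of 50. It was 2.73% with the pseudocount of 10 and 2.55% with the robust prior. Over all genes, 362 were called higher and 697 lower, but 626 and 639 with median scaling and 579 and 607 with quantile scaling, which moved the median log2 fold change of all genes by 0.07 and 0.09. Under these scalings 6 and 7 members were called lower, all among the 8. No paired analysis was possible because mouse numbers are not shared between cohorts. Genes under a mean of 10, *Timp4* among them, were left out by the filter and entered only the fit without it.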

Other observations

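Other members known from stromal cells were measured in the sorted cells and did not pass the test. *Mmp11*, a stromelysin of fibroblasts, was 326 ± 52 in *Ctl* and 256 ± 48.2 in *Smad4del* cells (adjusted p = 0.201). *Adam12*, known from activated stellate cells, was 41.6 to 78.7 in *Ctl* mice and 0 to 52.2 in *Smad4del* mice (58.0 ± 15.4 and 26.5 ± 22.6, adjusted p = 0.191), with A5216 at 0. *Adam33* was 223 ± 68.2 and 167 ± 63.2 (adjusted p = 0.350).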
